A study of Mus musculus with 6 samples.

Results

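This account follows the 6 mature miRNAs of the miR-28, miR-151 and miR-708 family, which are the 5p and 3p arms of 3 related hairpins. Under their full names they are mmu-miR-28a-5p, mmu-miR-28a-3p, mmu-miR-151-5p, mmu-miR-151-3p, mmu-miR-708-5p and mmu-miR-708-3p, and the prefix is left out below. They were matched by name alone, in a family picked with earlier results of these data known, and all 6 were found among the 1034 distinct miRNAs of the table, each in a single row. The samples were nephron progenitor cells of CD1 mice, the cells of the outer kidney from which nephrons form. They came from embryos at E14.5, in mid-gestation, or from pups on the day of birth (P0), with 3 samples per stage. No genotype, transgene or drug is named for either stage. Each sample was a pool of up to 24 kidneys of 1 litter, digested for 15 min and enriched with magnetic beads against Itga8, a surface integrin. The RNA is therefore that of an enriched pool, and its cell type can be checked here only through miRNAs.

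A miRNA hairpin is cut into a short duplex of a 5p and a 3p arm, and usually one arm is kept in an Argonaute protein while the other is lost. Bases 2 to 8 of the kept arm, the seed, do most of the pairing with target mRNAs. The 3 hairpins are relatives of each other and each lies inside a gene of its own. Lpp, the host of Mir28a, encodes a LIM domain protein of focal adhesions. Ptk2, the host of Mir151, encodes focal adhesion kinase. Tenm4, the host of Mir708, encodes a teneurin, a large transmembrane protein. miR-151 has been studied with its host in cell migration, and miR-28-5p and miR-708 have been studied in renal carcinoma cells.

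The sequences below show which members can share targets. They are mature sequences from RefSeq on GRCm38.p6, written 5′ to 3′ with the seed in capitals, and 4 of the 6 members matched that table by name.
miR-28a-5p: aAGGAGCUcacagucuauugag
miR-708-5p: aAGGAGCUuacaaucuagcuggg
miR-28a-3p: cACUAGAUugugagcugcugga
miR-708-3p: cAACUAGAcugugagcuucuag
miR-28a-5p and miR-708-5p had the same seed, AGGAGCU, and were identical over their first 8 bases. They matched at 16 of 22 positions in all. No other mature miRNA among the 1679 names in the reference had this seed, a search that took in neither miR-28c nor the miR-151 arms. The seeds of miR-28a-3p and miR-708-3p differed, but the arms matched at 17 of 21 positions when shifted by 1 base. GC content was 45.5% for miR-28a-5p, 50.0% for miR-28a-3p, 47.8% for miR-708-5p and 45.5% for miR-708-3p.

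All 6 members lay in introns, on the strand of their host gene in GENCODE M21, on the mm10 build named in the submitters' processing notes. miR-28a-5p (chr16:24827868-24827889) and miR-28a-3p (chr16:24827908-24827929) were on the plus strand of Lpp. miR-708-5p (chr7:96249450-96249472) and miR-708-3p (chr7:96249496-96249517) were on the plus strand of Tenm4. miR-151-5p (chr15:73254855-73254875) and miR-151-3p (chr15:73254820-73254840) were on the minus strand of Ptk2, where an intron of the antisense transcript 1700085D07Rik also covers them. Host mRNA levels were not analysed here.

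Levels are given as deposited, in TPM, which here is reads divided by the end minus the start position of the miRNA and scaled to the same total in each library. Library totals ranged from 2649506 to 34934526 recovered reads, and the 2 smallest libraries, E14.5 replicates 1 and 3, were both embryonic. Members had from 139 reads, for miR-28a-5p in E14.5 replicate 1, to 28952 reads, for miR-708-5p in E14.5 replicate 2, so none was near the floor of 3 reads. P0 replicate 1 stood apart from its stage: over the 670 miRNAs that averaged 1 TPM or more, its Pearson correlation averaged 0.948 against the E14.5 group and 0.908 against the rest of the P0 group. Results that turn on it are given with and without it. Summed marker miRNAs of other cell types ranged lower at P0 in each of 5 lists, none with a marker at 0 in every library. The range went from 26608 to 44921 TPM at E14.5 to 5634 to 8158 at P0 for the 2 endothelial markers, and from 84422 to 101445 to 33420 to 45898 for the 7 stromal ones. It went from 242 to 417 TPM to 127 to 189 for the 4 erythroid markers. For the 4 leukocyte markers it went from 632 to 1202 TPM to 454 to 629, and for the 5 epithelial ones from 4122 to 23183 to 500.2 to 1542. Single markers could go the other way in TPM: the log2 change was 0.76 for erythroid miR-486a-5p and 0.36 for leukocyte miR-223-3p, neither of them called. The median of all 670 miRNAs was 1.20 lower at P0 on the log2 scale in TPM. With median-of-ratios scaling the stages remained apart for the endothelial and epithelial sums and overlapped for the other lists. The scaled leukocyte sum ranged higher at P0, from 383 to 706 at E14.5 to 633 to 777 at P0. In such pools, fewer cells of a type and less RNA per cell cannot be told apart, and the part of these cell types in the family's values was not tested.

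The family's total was lower at P0 in TPM but overlapped between the stages once the libraries were scaled by median-of-ratios size factors. The sum over its 6 members was 3375, 2634 and 3169 TPM in the embryonic pools, in replicate order, against 1135, 1164 and 1332 TPM in the newborn pools. The P0 libraries were all below the E14.5 libraries. With median-of-ratios scaling the totals were 1981, 1596 and 1633 for the embryonic pools against 1143, 1994 and 2094 for the newborn pools, and P0 replicate 1 was the lowest of the 6. The overlap rests on that library: with the same size factors, both remaining P0 totals were above every E14.5 total, the lower of them only just. The make-up of the total also differed. The miR-708 hairpin held 44.5%, 48.1% and 40.9% of the family's TPM at E14.5, replicate by replicate, against 36.3%, 22.4% and 25.5% at P0, with no overlap between the stages. The miR-28a hairpin held 9.17%, 17.75% and 13.2% at E14.5 and 28.8%, 17.5% and 23.9% at P0, and here the stages overlapped. The miR-151 hairpin held 34.1% to 46.3% at E14.5 and 34.9% to 60.1% at P0. miR-708-5p was the most abundant member in all 3 E14.5 libraries and, by a narrow margin over miR-151-5p, in P0 replicate 1. miR-151-5p led in P0 replicates 2 and 3.

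**Figure D1:**
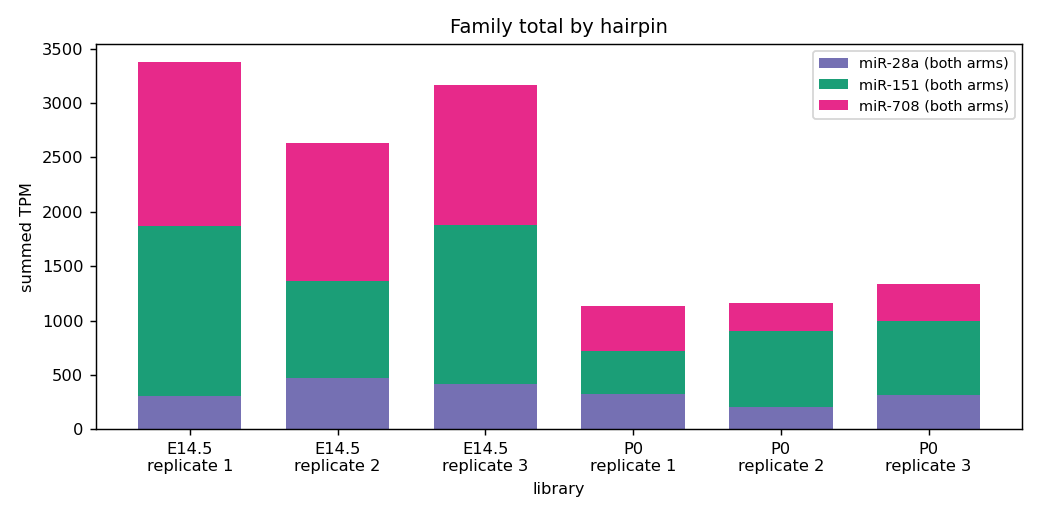
Summed TPM of both arms of each hairpin (vertical axis, from 0) in each of the 6 libraries, stacked by hairpin. The E14.5 totals lie between 2634 and 3375 TPM and the P0 totals between 1135 and 1332 TPM, with the miR-708 part the most reduced.

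The question put to the members was which of them differed between the embryonic and the newborn progenitors. All 6 had lower mean levels at P0 in TPM, and 2 of them passed the test: miR-708-5p and miR-28a-5p, the pair with the shared seed. These calls were made with limma on log2(TPM + 1), over the 670 miRNAs tested, with Benjamini-Hochberg adjusted p-values called below 0.05. Over all tested miRNAs 32.8% were called lower at P0 and 1.34% higher, so 2 of 6 is close to the background share of lower calls. The median change of the members was −1.26 on the log2 scale, against −1.20 for all 670 miRNAs. For 5 of the 6 members every P0 library was below every E14.5 library, as was so for 46.4% of all tested miRNAs. When the libraries were scaled by median-of-ratios size factors, the median of all miRNAs moved to −0.16 and that of the members to 0.02. Under that scaling 3 members were higher, 3 were lower, and none of the 6 was called by limma, with 1 at an unadjusted p under 0.05. Over all miRNAs 10.9% were called under it, 38 higher and 35 lower, in place of 9 higher and 220 lower in TPM. What the members did relative to other miRNAs is therefore given beside each TPM value.

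miR-708-5p is the main arm of its hairpin in every library. It had 1406, 1173 and 1177 TPM at E14.5 and 330, 242 and 297 TPM at P0, listed here and below by replicate number. The stages were far apart relative to the spread within each, with means of 1252 ± 134 TPM in the embryonic group and 289.5 ± 44.4 TPM in the newborn group (SD, n = 3). The change on the log2(TPM + 1) scale was −2.12 (SE 0.48, 95% interval −3.17 to −1.06, limma adjusted p = 0.00773). It was the 162nd lowest change of the 670 and lay 0.92 below their median. Its call was lost without E14.5 replicate 3 (limma adjusted p = 0.0510) and kept when any other single library was left out. With median-of-ratios scaling the change was −0.82 (95% interval −1.72 to 0.07, limma adjusted p = 0.176), so the call was made in TPM and not on this scale.

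miR-28a-5p, which carries the same seed, is the minor arm of its hairpin and the least abundant member at both stages. It had 52.6, 59.4 and 92.0 TPM in the E14.5 replicates and 14.6, 11.1 and 23.7 TPM in the P0 replicates. The lowest E14.5 library was thus above the highest P0 library, with means of 68.0 ± 21.1 TPM and 16.5 ± 6.50 TPM (SD, n = 3). The change was −2.005 (SE 0.58, 95% interval −3.26 to −0.75, limma adjusted p = 0.0206), 0.81 below the median of all miRNAs. The call was lost without E14.5 replicate 1 (limma adjusted p = 0.0598), E14.5 replicate 2 (0.0520), E14.5 replicate 3 (0.115) or P0 replicate 2 (0.0981). With median-of-ratios scaling the change was −0.75 (limma adjusted p = 0.345).

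The arms that carry the shared seed can be added, since they can pair with the same target seed sites. miR-28a-5p and miR-708-5p together came to 1459, 1232 and 1269 TPM at E14.5 and to 344, 253 and 321 TPM at P0, with no overlap between the stages. With median-of-ratios scaling the sums were closer, 857, 747 and 654 against 347, 433 and 504, still without overlap. How many of all miRNAs had no overlap on that scale was not counted. Neither miR-708-5p (limma adjusted p = 0.176) nor miR-28a-5p (0.345) was called on it. Nearly all of the seed sum was miR-708-5p, which held 94.8% ± 1.86 of it before birth and 94.7% ± 1.78 at birth (SD, n = 3). The ratio of the pair did not separate the stages. miR-708-5p exceeded miR-28a-5p by 26.7, 19.7 and 12.8 times at E14.5 and by 22.6, 21.8 and 12.5 times at P0.

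miR-28a-3p, the main arm of Mir28a, had the smallest log2 change of the 6 in TPM. It had 257, 408 and 325 TPM in the E14.5 replicates and 312, 193 and 295 TPM in the P0 replicates. The stages overlapped, and the change was −0.31 (SE 0.52, 95% interval −1.44 to 0.82, limma adjusted p = 0.631). Relative to the median of all miRNAs it lay 0.88 higher, at rank 171 from the highest of 670. With median-of-ratios scaling its sign turned to 0.98 (95% interval 0.02 to 1.94, limma adjusted p = 0.144), with scaled values of 150.9, 247 and 168 at E14.5 and 315, 330 and 463 at P0. Without P0 replicate 1 that scaled change was 1.08 and passed the test (limma adjusted p = 0.0285), in a fit that called 22.4% of all miRNAs higher, whereas in TPM without the same library it was −0.44 (limma adjusted p = 0.282). In TPM the interval still allows a level up to 2.72-fold lower at P0.

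miR-151-5p, the main arm of its hairpin, had 1098, 674 and 1162 TPM in the E14.5 replicates and 328, 498 and 499.9 TPM in the P0 replicates. The stages did not overlap. The change was −1.13 (SE 0.51, 95% interval −2.23 to −0.03), and it did not pass after adjustment (limma adjusted p = 0.0957). It lay 0.07 above the median of all 670 miRNAs. With median-of-ratios scaling it was 0.16 (limma adjusted p = 0.848), so its sign turned with the scaling. Without P0 replicate 1, its lowest library, the TPM change passed at −0.93 (limma adjusted p = 0.0269), where 53.4% of all miRNAs were called lower.

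miR-151-3p had 466, 225 and 295 TPM in the E14.5 replicates and 68.1, 201 and 175 TPM in the P0 replicates. P0 replicate 1 was the lowest library, and the lowest E14.5 and highest P0 values were close to each other. The change was −1.22 (SE 0.60, limma adjusted p = 0.119) in TPM and 0.07 with median-of-ratios scaling (limma adjusted p = 0.943), and it was not called on either scale. Without P0 replicate 1 the TPM change was −0.74 (limma adjusted p = 0.101).

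miR-708-3p, the minor arm of its hairpin, had 95.02, 95.4 and 118 TPM in the E14.5 replicates. The P0 replicates had 81.8, 19.5 and 42.4 TPM, with replicate 1 just under the E14.5 libraries and replicate 2 far below. The change was −1.30 (SE 0.62, limma adjusted p = 0.112) in TPM and −0.03 with median-of-ratios scaling (limma adjusted p = 0.967). Without P0 replicate 1 the TPM change was −1.79 and passed the test (limma adjusted p = 0.00383), in that same fit with 53.4% called lower. Without P0 replicate 2, its lowest library, it was −0.79 (limma adjusted p = 0.427).

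**Figure D2:**
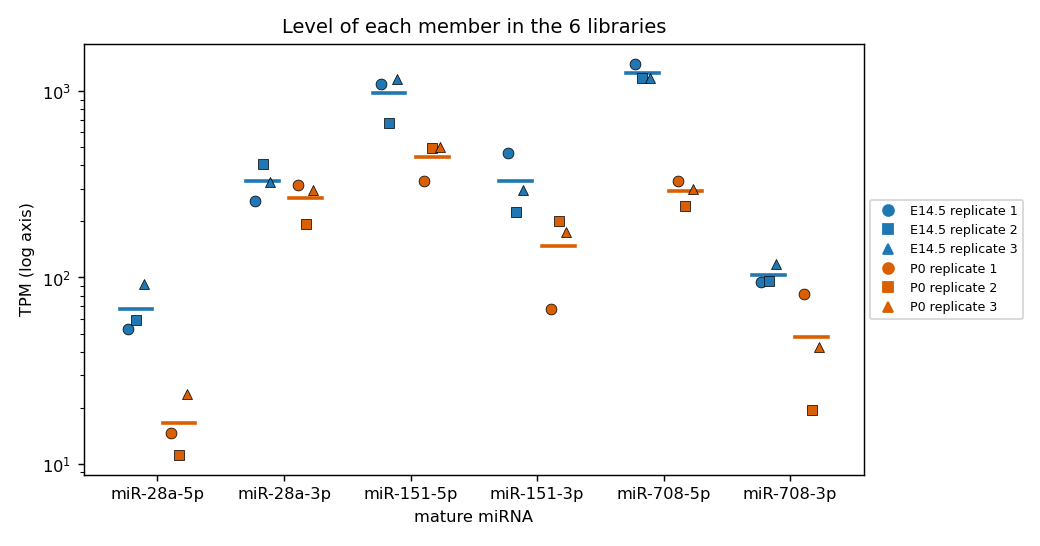
Level of each member in TPM (vertical log axis) in the E14.5 (blue) and P0 (orange) libraries. Each symbol is 1 library and each bar the mean of the 3 libraries of a stage. miR-708-5p and miR-28a-5p show the widest gaps between stages, and the stages overlap for miR-28a-3p alone.

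**Figure D3:**
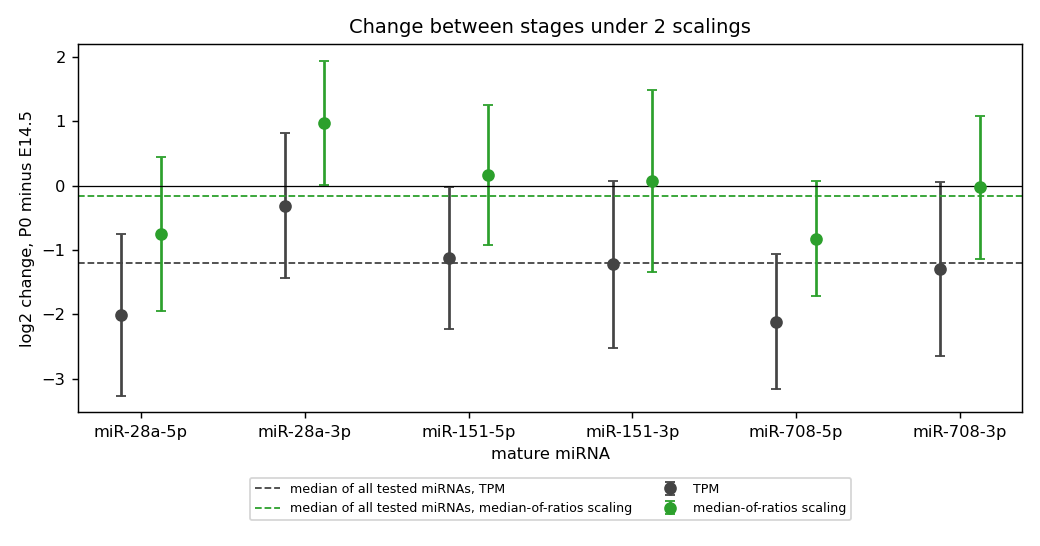
Change of each member from E14.5 to P0 on the log2 scale (vertical axis) in TPM (dark) and with median-of-ratios scaling (green), with 95% intervals from limma. Dashed lines are the medians of all 670 tested miRNAs, −1.20 in TPM and −0.16 with scaling. miR-708-5p and miR-28a-5p lie below, and miR-28a-3p above, the median of each scale. The scaling applies 1 factor per library to all miRNAs, so it shifts the members by nearly the same amount.

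The order of the members by mean TPM differed between the stages at its top. How efficiently each sequence was captured in the libraries was not measured, so this is an order of reads per length and may not be one of molecules. At E14.5 it was miR-708-5p (1252 ± 134), miR-151-5p (978 ± 265), miR-28a-3p (330 ± 75.7), miR-151-3p (329 ± 124), miR-708-3p (103 ± 13.2) and miR-28a-5p (68.0 ± 21.1), in TPM (SD, n = 3). The levels of miR-28a-3p and miR-151-3p overlapped there, and those of the first pair differed by about their spread. At P0 it was miR-151-5p (442 ± 98.6), miR-708-5p (289.5 ± 44.4), miR-28a-3p (267 ± 64.7), miR-151-3p (148 ± 70.4), miR-708-3p (47.9 ± 31.5) and miR-28a-5p (16.5 ± 6.50). Every neighbouring pair in this P0 order had overlapping libraries. For the first pair this came from P0 replicate 1 alone, with miR-708-5p at 329.6 TPM and miR-151-5p at 328.3 TPM. Among all 1034 miRNAs, miR-708-5p ranked 79th at E14.5 and 110th at P0 by mean TPM, whereas miR-28a-3p ranked 149th and 117th.

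The next question was whether the arms of a hairpin moved together, which the ratio of 5p to 3p within a library answers without any scaling between libraries. miR-28a is mainly a 3p hairpin. Its 5p arm took 17.0% of the hairpin's reads (Wilson interval at 95% confidence, 14.6 to 19.7), 12.7% (12.1 to 13.3) and 22.1% (20.35 to 23.9) at E14.5, by replicate. At P0 it took 4.46% (4.09 to 4.85), 5.46% (4.83 to 6.16) and 7.44% (6.84 to 8.09). All P0 shares were below all E14.5 shares, and no interval of one stage reached one of the other. In TPM the 3p arm exceeded the 5p arm by 4.885, 6.87 and 3.53 times at E14.5 and by 21.4, 17.3 and 12.4 times at P0. Intervals on shares cover counting error only.

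The change in the log2 ratio of miR-28a-5p to miR-28a-3p, with 1 TPM added to each arm, was −1.69 (SE 0.47, 95% interval −2.81 to −0.57), that is, a ratio 3.23-fold lower at P0. It did not pass adjustment over the 245 hairpins tested, those in which each arm averaged 1 TPM or more (limma adjusted p = 0.116). No hairpin did: limma called 0 of the 245 (0.0%), and 74 had an unadjusted p under 0.05. Hairpins with every P0 ratio below every E14.5 ratio, like miR-28a, made up 17.1% of the 245. By size, the miR-28a change ranked 65th of the 245, so shifts of this size were common among hairpins. Without P0 replicate 1 it was −1.51 and passed (limma adjusted p = 0.0225), in a fit that called 113 hairpins, 22.0% of all with a lower ratio at P0. Without any other single library its limma adjusted p was 0.137 to 0.343.

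miR-151 kept the same arm in front at both stages. Its 5p arm took 70.2%, 75.0% and 79.7% of the hairpin's reads in the E14.5 replicates and 82.8%, 71.25% and 74.1% in the P0 replicates. The stages overlapped, and the change in the log2 ratio was 0.09 (SE 0.43, 95% interval −0.92 to 1.11, limma adjusted p = 0.886). That interval leaves room for a ratio 1.89-fold lower at P0 and, at its upper end, for a larger rise. The sign turned to −0.09 without E14.5 replicate 1 and to −0.19 without P0 replicate 1.

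miR-708 is a 5p hairpin. Its 5p arm took 93.9%, 92.8% and 91.3% of the reads in the E14.5 replicates and 80.9%, 92.8% and 88.0% in the P0 replicates. P0 replicate 1 was the lowest, with 4.03 times as much 5p as 3p in TPM, against 7.01 to 12.4 times in the other P0 libraries and 9.97 to 14.8 times at E14.5. The change in the log2 ratio was −0.81 (SE 0.51, 95% interval −2.03 to 0.40, limma adjusted p = 0.303). Without P0 replicate 1 it was −0.42 (limma adjusted p = 0.372).

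**Figure D4:**
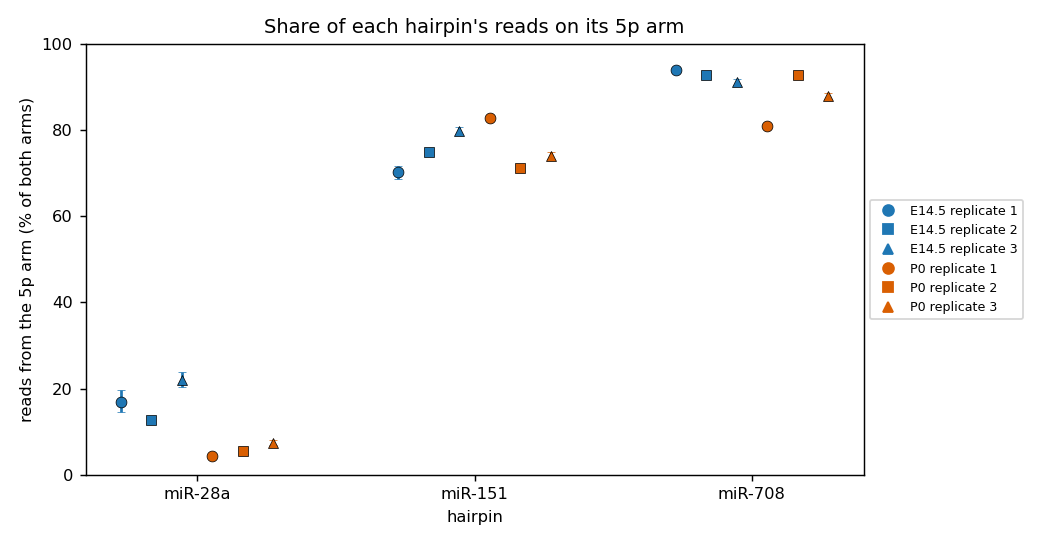
Share of each hairpin's reads that came from the 5p arm (vertical axis, percent of both arms) in each library, with 95% Wilson intervals, blue for E14.5 and orange for P0. The miR-28a shares are 12.7% to 22.1% at E14.5 and 4.46% to 7.44% at P0, and the shares of the other hairpins overlap between stages.

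**Figure D5:**
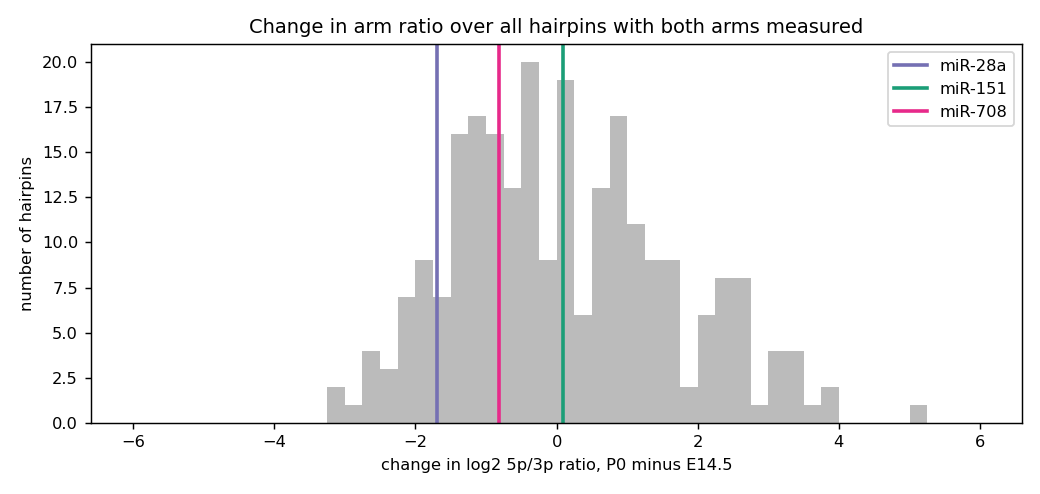
Number of hairpins (vertical axis) by their change in log2 5p/3p ratio from E14.5 to P0 (horizontal axis), over the 245 hairpins in which each arm averaged 1 TPM or more. The lines mark miR-28a at −1.69, miR-708 at −0.81 and miR-151 at 0.09, all inside the main body of the distribution.

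The 5p arms were also compared between hairpins, as 3 ratios within each library. miR-708-5p was 1.28, 1.74 and 1.01 times miR-151-5p at E14.5 and 1.00, 0.485 and 0.594 times at P0. P0 replicate 1 lay just under E14.5 replicate 3, and the stages did not overlap. The log2 ratio differed by −0.99 between stages (exact two-sided permutation test, p = 0.1, adjusted over the 3 ratios p = 0.3). For miR-28a-5p to miR-151-5p the log2 ratio averaged −3.83 ± 0.47 in the embryonic pools and −4.70 ± 0.57 in the newborn pools (SD, n = 3; exact permutation p = 0.2, adjusted p = 0.3). For miR-28a-5p to miR-708-5p it was −4.22 ± 0.53 and −4.11 ± 0.45 (SD, n = 3; exact permutation p = 0.8, adjusted p = 0.8). With 3 libraries against 3 the smallest p that this test can give is 0.1, so none of the 3 ratios could reach 0.05.

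A further relative by name, miR-28c (chr15:53614216-53614235, minus strand, in an intron of Samd12), was measured too. It had 20.5, 14.54 and 21.9 TPM in the E14.5 replicates and 4.90, 1.24 and 10.2 TPM in the P0 replicates, with no overlap and 25 reads in P0 replicate 2. Its change of −1.89 passed the test in TPM (SE 0.67, limma adjusted p = 0.0443) and was −0.77 with median-of-ratios scaling (limma adjusted p = 0.440). The TPM call was lost without any 1 of the E14.5 replicates or P0 replicate 2 (limma adjusted p of 0.0834 to 0.208), and also with limma-voom, without the filter, with the stricter filter or with the smaller pseudocount (limma adjusted p of 0.0506 to 0.0740). miR-28b, of which the RefSeq sequence matches miR-28a-5p at 19 of 21 positions when shifted by 1 base, was not analysed here. Reads of such near-identical relatives can be divided between names by the counting.

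The miRNAs with the most similar pattern were taken for the main arm of each hairpin, as the 3 with the highest Pearson correlation of log2(TPM + 1) over the 6 libraries, among 426 miRNAs that averaged 10 TPM or more. The libraries fall into 2 stages and differ in depth, which all miRNAs have in common, so these values are descriptions. For miR-28a-3p they were miR-100-5p (0.931), miR-574-3p (0.915) and miR-206-3p (0.872). For miR-151-5p they were miR-200c-3p (0.992), miR-199a-5p (0.985) and miR-503-3p (0.982). For miR-708-5p they were miR-19b-1-5p (0.994), miR-212-3p (0.994) and miR-3618-5p (0.990).

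In the authors' deposited table, no member had an adjusted p-value under 0.05, where 10.4% of all miRNAs did. The log2 fold changes in the authors' deposited table were −0.80 for miR-708-5p (SE 0.58, adjusted p = 0.352) and −0.44 for miR-28a-5p (SE 0.71, adjusted p = 0.7004). Those in the authors' deposited table were 0.89 for miR-28a-3p (SE 0.61, adjusted p = 0.326), 0.47 for miR-151-5p, 0.34 for miR-151-3p and 0.08 for miR-708-3p. The header does not state the direction of these fold changes, and it was read as P0 over E14.5 from the per-sample values. Read in this way, the signs for the last 4 members differed from those of the TPM changes. On the median-of-ratios scale the log2 changes were −0.82 for miR-708-5p, −0.75 for miR-28a-5p and 0.98 for miR-28a-3p. They were 0.16 for miR-151-5p, 0.07 for miR-151-3p and −0.03 for miR-708-3p. On that scale only miR-708-3p differed in sign from the authors' fold change.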

How the data were processed

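The authors deposited 1 table with a TPM value per mature miRNA and sample. It also holds their mean normalised signal, log2 fold change with its standard error, test score, p-value and adjusted p-value, per the file headers. The submitters' processing notes name featureCounts, DESeq2 1.26.0 and mm10. Trimming, alignment and the handling of molecular tags are not given in the sources used here. Small RNA libraries were made with a QIAseq kit, per the labels' protocols. Deposited TPM multiplied by end minus start and divided by the smallest nonzero product of its library gave whole reads (within 0.001) for 100% of values.

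From these values, limma 3.58.1 (R 4.3.3, moderated variances with trend) was fitted to log2(TPM + 1), with stage as the only term, for miRNAs averaging 1 TPM or more, and likewise to log2 arm ratios. P-values were Benjamini-Hochberg adjusted and called below 0.05. A miRNA with several rows was represented by its most abundant one. Exact permutation tests were run in SciPy 1.17.1. The fits were run on simulated data with equal numbers of rises and falls, the same relative spread for all miRNAs and no outlying library. That run therefore does not cover the effect of P0 replicate 1 or of the shifted median in TPM. The members, lists and tests were chosen with earlier results of these data known. The named miRNAs are the members, relatives by name or seed, marker miRNAs and the 3 most similar to each main arm. The samples were separate litter pools. Alternatives covered other scalings (by median-of-ratios or by the upper quartile), limma-voom on the recovered reads, other filters, a pseudocount of 0.1, summed rows, a replicate block and leaving out each library.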

Additional observations from a re-analysis of the deposited data

How the results depend on the processing

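Of the 670 miRNAs tested, limma called 229 in TPM, 73 after median-of-ratios scaling, and 58 after upper-quartile scaling, of which 28 rose. Leaving out single libraries gave 66 to 410 called miRNAs in TPM, the lowest without E14.5 replicate 3 and the highest without P0 replicate 1, and 0 to 113 called arm ratios. Scaling turned the sign of miR-28a-3p, miR-151-5p and miR-151-3p, to 0.98, 0.16 and 0.066 with median-of-ratios and to 0.98, 0.17 and 0.072 with upper-quartile scaling. With median-of-ratios scaling and without P0 replicate 1, chosen after seeing the data, they were 1.08, 0.60 and 0.78, in a fit that called 323 miRNAs (150 higher, 173 lower) in place of 73. Upper-quartile scaling also ended the calls of miR-708-5p (−0.82, limma adjusted p = 0.182) and miR-28a-5p (−0.75, limma adjusted p = 0.349). limma-voom, both filters, the smaller pseudocount, summed rows and the replicate block kept the direction and call of all 6 members.

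The samples were separate litter pools, so replicate numbers did not pair litters. Deviations of same-numbered libraries from their stage means correlated at 0.193, 0.183 and 0.042, on average 0.139, while libraries of unlike number averaged −0.071. Such deviations cancel within each stage, which pushes these averages to opposite signs, so the value for unlike numbers is no separate evidence. Under the replicate block limma called 247 miRNAs in TPM and 77 with median-of-ratios scaling, and 0 arm ratios. Under the block and median-of-ratios scaling together, a setting also added after seeing the data, the signs of miR-28a-3p (0.98), miR-151-5p (0.16) and miR-151-3p (0.066) were again positive. Leaving out libraries moved the arm change of miR-151 from −0.19 to 0.29. For the between-hairpin log2 ratios, the range was −1.14 to −0.54 for miR-28a-5p to miR-151-5p, −1.29 to −0.76 for miR-708-5p to miR-151-5p, and −0.15 to 0.39 for miR-28a-5p to miR-708-5p. The last turned to −0.14 without E14.5 replicate 1 and −0.15 without P0 replicate 3. The cause of these changes was not tested. The fewest reads of any member were the 139 of miR-28a-5p in E14.5 replicate 1.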
